A study of Drosophila melanogaster with 36 samples.

Results

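The genes described here are the Drosophila melanogaster genes whose symbol in the array's probe annotation begins with RpL, RpS or RpLP followed by a digit. The rule found 41 genes among the 11982 genes that a probe set names alone, and each was read from its probe set with the highest mean. Of these, 30 encode standard subunits of the cytosolic ribosome and are called core genes below. A further 8 are second copies of a subunit gene: RpL10Aa, RpL22-like, RpL37-2, RpS5b, RpS10a, RpS19b, RpS28a and RpS28-like. The remaining 3, RpL7-like, RpL24-like and RpLP0-like, share a symbol with subunits but are relatives of the yeast ribosome assembly factors Rlp7, Rlp24 and Mrt4, so the symbol rule takes in genes that are not ribosomal proteins. A current gene table holds 51 more symbols of this form, which are not analysed here.

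The cytosolic ribosome translates messenger RNA with a small subunit, built with RpS proteins, that decodes, and a large subunit, built with RpL proteins, that joins amino acids. The stalk proteins RpLP0, RpLP1 and RpLP2 recruit elongation factors. Transcripts of the subunit proteins are among the most abundant of a cell. Some fly subunits have a second gene copy, and several of the copies, RpL22-like in the testis among them, are known for expression in germ cells.

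Abdominal fat body, the fly's main store of fat and glycogen, was taken from adult males kept beforehand for 5 days in 12 h light and 12 h dark at 25 °C. The WT group carried w; UAS-dnClk/+ with no driver named, and its 24 arrays were spaced 2 h apart over 2 days. The dnClk group has 12 arrays spaced 4 h apart over the same 2 days. Its name stands for a dominant-negative form of the clock transcription factor Clock. The labels name no driver for it either, so the cells that expressed it cannot be named. Each array held the pooled RNA of 10 fat bodies. No time was replicated, so the p-values measure the scatter of single arrays around their fit, part of which may be technical. Precision is set by how many arrays there are. Time is given as zeitgeber time (ZT), in hours after the first lights-on. Values are log2(intensity + 16), called log2 units below.

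The 12 measured fat body markers averaged 9.53 to 10.76 log2 units on the WT arrays and 8.42 to 8.78 on the dnClk arrays, and none was at 0 throughout. Testis transcripts were also measured: the 22 testis markers tested averaged 5.03 to 10.03 log2 units in WT and 6.92 to 9.35 in dnClk, and none of them was at 0 on all arrays. The 11 measured accessory gland and ejaculatory tract markers averaged 6.05 to 7.84 in WT and 6.93 to 8.10 in dnClk. The bacterial hybridisation controls averaged 11.54 to 12.67 log2 units in WT and 9.87 to 10.61 in dnClk, without overlap. The 3′ signal of Act5C exceeded its 5′ signal by 2.57 to 4.42 log2 units in WT and by 0.93 to 2.08 in dnClk. The 2 courses thus differ as blocks of arrays, and the preparation of the arrays and the genotype cannot be told apart.

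The core genes gave some of the highest signals on the array. All 30 passed the filter on dim probe sets, and their mean signals lay between percentile 95.4 and the top of all probe sets. The 4 with the highest signal were RpL41, a very short basic peptide, the stalk protein RpLP2, RpL15 and RpL39. In WT, RpL41 ran from 12.70 log2 units at ZT18 through a median of 13.23 to 13.73 at ZT40. RpLP2 ran from 12.38 at ZT24 through 12.89 to 13.33 at ZT40, RpL15 from 12.28 at ZT18 through 12.87 to 13.37 at ZT40, and RpL39 from 12.12 at ZT24 through 12.65 to 13.02 at ZT40. The 4 genes therefore had their highest WT array in common, and their lowest at ZT18 or ZT24. In dnClk the same 4 were lowest at ZT8, at 11.50, 11.33, 11.21 and 11.29 log2 units in that order, and highest at ZT44, at 12.34, 11.91, 11.82 and 11.85.

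The second copies gave much lower signals. Their mean signals lay between percentiles 33.2 and 72.1, and RpS10a and RpS28a fell below the filter, which left 6 of the 8 tested. The assembly relatives lay between percentiles 75.2 and 95.7 and were all tested, so that 39 of the 41 genes entered the fits.

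The first question was whether these genes follow the day. None of the 39 tested genes had a 24 h rhythm in WT after adjustment (limma, cosine and sine of 24 h, Benjamini-Hochberg over 11261 probe sets), and 2 had an unadjusted p under 0.05. Over all tested probe sets, 0.648% passed, 73 in number, and 196 did without the array at ZT36. The fitted amplitude, the distance from the mean to the peak, had a median of 0.14 log2 units over the 39 genes against 0.13 over all tested probe sets. The smallest p-values belonged to the assembly relatives and to RpL3, a large-subunit protein close to the peptidyl transferase centre. RpLP0-like had an amplitude of 0.25 ± 0.09 (SE) with a fitted peak at ZT21.1 (adjusted p = 0.498, limma), and RpL24-like one of 0.16 ± 0.06 at ZT16.7 (adjusted p = 0.528, limma). RpL3 followed with 0.34 ± 0.13 at ZT16.5 (adjusted p = 0.617, limma), RpL7-like with 0.17 ± 0.08 at ZT15.9 (adjusted p = 0.630, limma) and RpL40, which is made as a fusion with ubiquitin, with 0.16 ± 0.08 at ZT15.7 (adjusted p = 0.630, limma).

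The fitted peaks of the 30 core genes in WT all lay between ZT13.7 and ZT18.6, in the dark hours, although none of them passed the test. Their amplitudes ran from 0.03 to 0.34 log2 units, with a median of 0.11. The core genes share their arrays, so these peaks are not independent of one another, and the same arrays set the testis signal described below. The second copies had fitted peaks between ZT3.56 and ZT5.09 with amplitudes of 0.30 to 0.97 log2 units, and none passed.

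In dnClk none of the 39 genes passed either, with 1 at an unadjusted p under 0.05, and 0.0355% of all tested probe sets passed, 4 in number and 1 to 5 with 1 array left out. RpLP0-like again had the smallest p, with an amplitude of 0.27 ± 0.09 log2 units and a fitted peak at ZT22.1 (adjusted p = 0.864, limma). RpL3 had 0.14 ± 0.06 and RpL41 0.18 ± 0.08, both at the same adjusted p of 0.864 by limma. The fitted peaks of the core genes lay between ZT17.2 and ZT23.5, in the dark hours as in WT. Their median amplitude was 0.11. No gene differed in rhythm between the genotypes, with 0 at an unadjusted p under 0.05, and 0.0% of all probe sets did. The smallest p-values of that difference were those of RpL24-like, with WT and dnClk amplitudes of 0.16 and 0.07, of RpL3 with 0.34 and 0.14, and of RpL7-like with 0.17 and 0.09 (adjusted p = 0.977 for each, limma). The lack of a call does not show that the genotypes were alike.

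**Figure D1:**
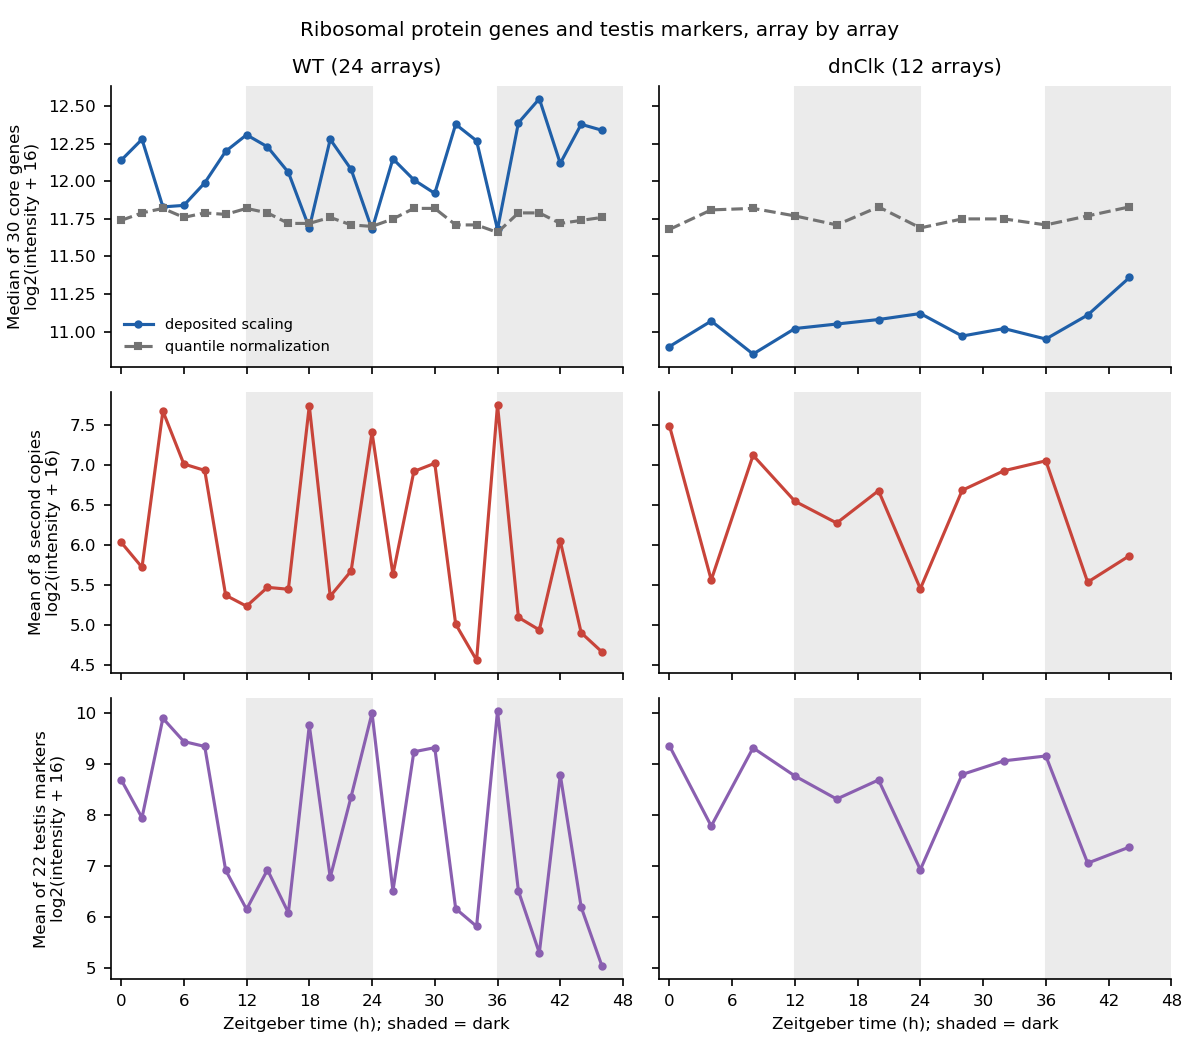
Median of the 30 core genes under the deposited scaling and after quantile normalization (top), mean of the 8 second copies (middle) and mean of 22 testis markers (bottom), all in log2(intensity + 16), against zeitgeber time in hours, 1 point per array, dark hours shaded. In WT the core median drops to 11.68 at ZT24 and ZT36 where the second copies and the testis markers are high, and the quantile-normalized line stays between 11.66 and 11.82.

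Although no member was called rhythmic, the core genes moved together from array to array. Their median on each WT array ran from 11.68 log2 units at ZT24 to 12.55 at ZT40, a 1.83-fold range. The arrays at ZT24, ZT36, ZT18 and ZT4 were the 4 lowest, at 11.68, 11.68, 11.69 and 11.83. The arrays at ZT40, ZT38, ZT44 and ZT32 were the 4 highest, at 12.55, 12.39, 12.38 and 12.38. Arrays at the same hour of the 2 days did not repeat each other: the second day differed from the first by -0.63 log2 units at the hour of ZT12 and by 0.49 at the hour of ZT16, and was the higher in 9 of 12 hours.

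The 4 arrays with the lowest core median were also the 4 with the most testis signal, at 9.99, 10.03, 9.75 and 9.89 log2 units in the order given. On the 4 with the highest core median the testis markers averaged 5.29, 6.50, 6.19 and 6.16. Counted gene by gene, each core gene's 6 lowest WT arrays make 180 values, and 178 of them lay on the 8 arrays whose testis markers averaged above 9. No such count was made for other genes, so whether it is particular to the core genes is not known. The 619 other genes at least as bright as the dimmest core gene had a median r of 0.74 with the core mean in WT. Going from the first day to the second at the same hour, the core median moved opposite to the testis markers in 11 of 12 hours in WT and in 6 of 6 in dnClk. The 99th percentile of all probe sets moved with the core genes too, at 2692 to 2807 intensity units on the 4 low arrays and 4286 to 4438 on the 4 high ones. In pooled tissue, fewer fat body cells and less ribosomal protein RNA per cell cannot be told apart.

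After quantile normalization, which gives every array the same distribution of values and so holds the brightest probe sets nearly in place, the core median of the WT arrays ran only from 11.66 to 11.82 log2 units. In dnClk the core median ran from 10.85 at ZT8 to 11.36 at ZT44 under the deposited scaling, and from 11.68 to 11.83 after quantile normalization. The common course of the core genes in WT thus spanned 0.87 log2 units before and 0.16 after quantile normalization.

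The slope of each gene on the mean of the testis markers separated the members by kind, a division chosen with earlier results of these data known. In WT all 6 tested second copies rose with the testis signal, and all 30 core genes and RpL7-like fell with it (limma over 24 arrays, adjusted p under 0.05), while RpL24-like, at -0.06 ± 0.03, and RpLP0-like, at -0.09 ± 0.04, did not pass (adjusted p = 0.0603 and 0.0580, limma). These 2 are undecided: RpL24-like passed when the array at ZT6, ZT8, ZT26, ZT32 or ZT42 was left out (adjusted p between 0.0296 and 0.0490), and RpLP0-like when that at ZT2, ZT6, ZT12, ZT30 or ZT40 was (between 0.0248 and 0.0462). Over all tested probe sets, 18.2% had a positive slope that passed and 25.2% a negative one. A slope of 1 means that the gene gains 1 log2 unit for each log2 unit of testis signal.

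RpL10Aa, a copy of the large-subunit gene RpL10Ab, had the steepest slope, at 1.14 ± 0.04 (adjusted p = 3.545e-17, limma). Its WT values ran from 4.47 log2 units at ZT46 through a median of 6.39 to 9.95 at ZT36, and the deposited intensities from 6.1 to 973. The low end is below the dimmest mean tested, 31.3 intensity units, so the added 16 sets much of the log2 range of this and the other copies. The 8 arrays with the most testis signal were its 8 highest arrays. RpL10Ab ranged 1.80-fold over the same arrays. Under the deposited scaling it moved opposite to RpL10Aa in 21 of 23 steps from one WT array to the next. The r of the pair in WT was -0.85 there and 0.18 after quantile normalization. In dnClk RpL10Aa ran from 5.63 at ZT24 through 8.24 to 9.51 at ZT0.

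RpL37-2, a copy of RpL37-1, had a slope of 0.69 ± 0.07 (adjusted p = 2.116e-08, limma) and ran in WT from 4.10 log2 units at ZT34 through 5.58 to 8.22 at ZT18, or from 1.2 to 283 in deposited intensity. RpL37-1 ranged 2.08-fold. RpS28-like had a slope of 0.62 ± 0.05 (adjusted p = 5.891e-11, limma), from 4.75 at ZT34 through 6.56 to 8.44 at ZT36, and its partner RpS28b, a small-subunit gene, ranged 1.66-fold. These pairs also moved apart in most steps under the deposited scaling, 17 of 23 and 20 of 23 respectively. Their r in WT was -0.85 and -0.80 there, and -0.24 and 0.285 after quantile normalization.

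RpS19b, RpL22-like and RpS5b, copies whose standard partners are not analysed here, had slopes of 0.58 ± 0.07, 0.50 ± 0.05 and 0.48 ± 0.06. RpS19b ran in WT from 4.27 log2 units at ZT46 through 5.87 to 8.26 at ZT36. RpL22-like ran from 4.18 at ZT46 through 5.35 to 7.25 at ZT18. RpS5b ran from 4.92 at ZT32 through 5.62 to 7.87 at ZT18. All 3 were high on the same arrays as RpL10Aa, since each copy had its 8 highest WT values on the 8 arrays with testis markers above 9. That also held for the 2 copies below the filter. No such count was made for other genes, and 18.2% of all tested probe sets had a positive slope that passed. RpS10a ran from 4.34 at ZT38 through 4.88 to 6.66 at ZT36, and RpS28a from 4.05 at ZT34 through 5.17 to 6.70 at ZT4, with slopes of 0.40 ± 0.05 and 0.41 ± 0.05 when the filter was lifted (adjusted p = 3.762e-07 and 2.158e-07, limma).

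**Figure D2:**
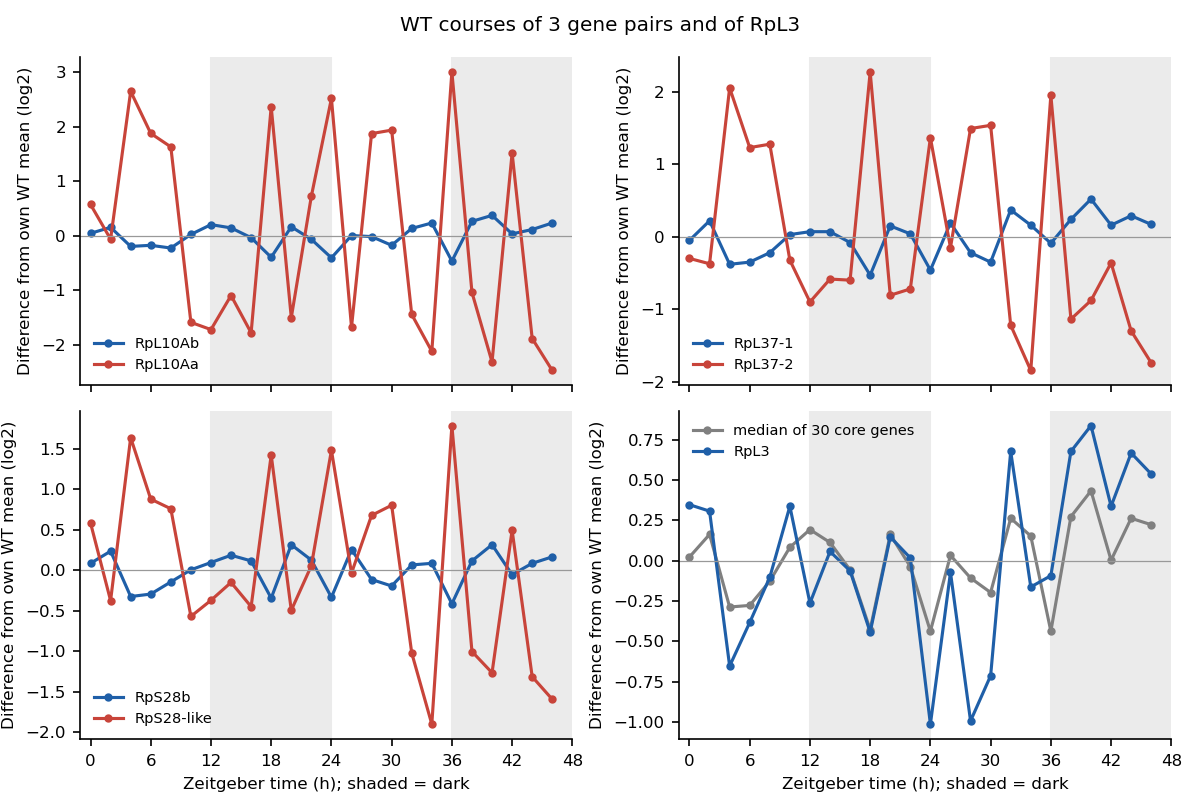
WT course of 3 second copies (red) beside their standard partners (blue), and of RpL3 (blue) beside the median of the core genes (grey), each as the difference in log2 units from its own WT mean, against zeitgeber time in hours, 1 point per array, dark hours shaded. Values are under the deposited scaling. RpL10Aa peaks at ZT4, ZT18, ZT24 and ZT36 while RpL10Ab dips, and RpL3 falls below the core median at ZT24 and ZT28.

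The dnClk arrays, which did not enter that fit, gave the same division for the copies. The slope there, a fit added after the WT values were seen, passed for 6 of the 39 genes, all positive and all second copies, against 12.5% of all probe sets with a positive call and 6.38% with a negative one. The number with a negative call, 718, depends on single arrays: it was 36 without the array at ZT0 and 1876 without that at ZT4, while the number with a positive call stayed between 1158 and 1493. The slope was 1.56 ± 0.08 for RpL10Aa, 0.94 ± 0.08 for RpS19b, 0.89 ± 0.07 for RpL37-2, 0.80 ± 0.11 for RpS5b, 0.66 ± 0.08 for RpS28-like and 0.57 ± 0.10 for RpL22-like. No core gene passed in dnClk (1 did without the array at ZT40), where 5 had an unadjusted p under 0.05 and the slopes ran from -0.13 to 0.01. Whether slopes differed between the genotypes was not tested.

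The negative slopes of the core genes were shallow and alike. They ran from -0.18 to -0.11 with a median of -0.13 in WT. The steepest were those of RpL3 at -0.18 ± 0.05, RpS7 at -0.16 ± 0.03 and RpL34a at -0.15 ± 0.03, the last 2 being a small and a large subunit protein (adjusted p = 0.00555, 0.000276 and 6.988e-05, limma). After quantile normalization their median was -0.0035, and RpL34a was the 1 core gene that still passed, at -0.11 (adjusted p = 0.000851, limma), beside RpL7-like at -0.09 and RpLP0-like at -0.18. The 6 copies kept their calls there, with slopes of 0.41 to 1.18, while 14.8% of all probe sets had a positive and 45.4% a negative call. In dnClk quantile normalization likewise left 6 positive calls and no negative one among the members, against 12.6% and 19.6% of all probe sets.

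**Figure D3:**
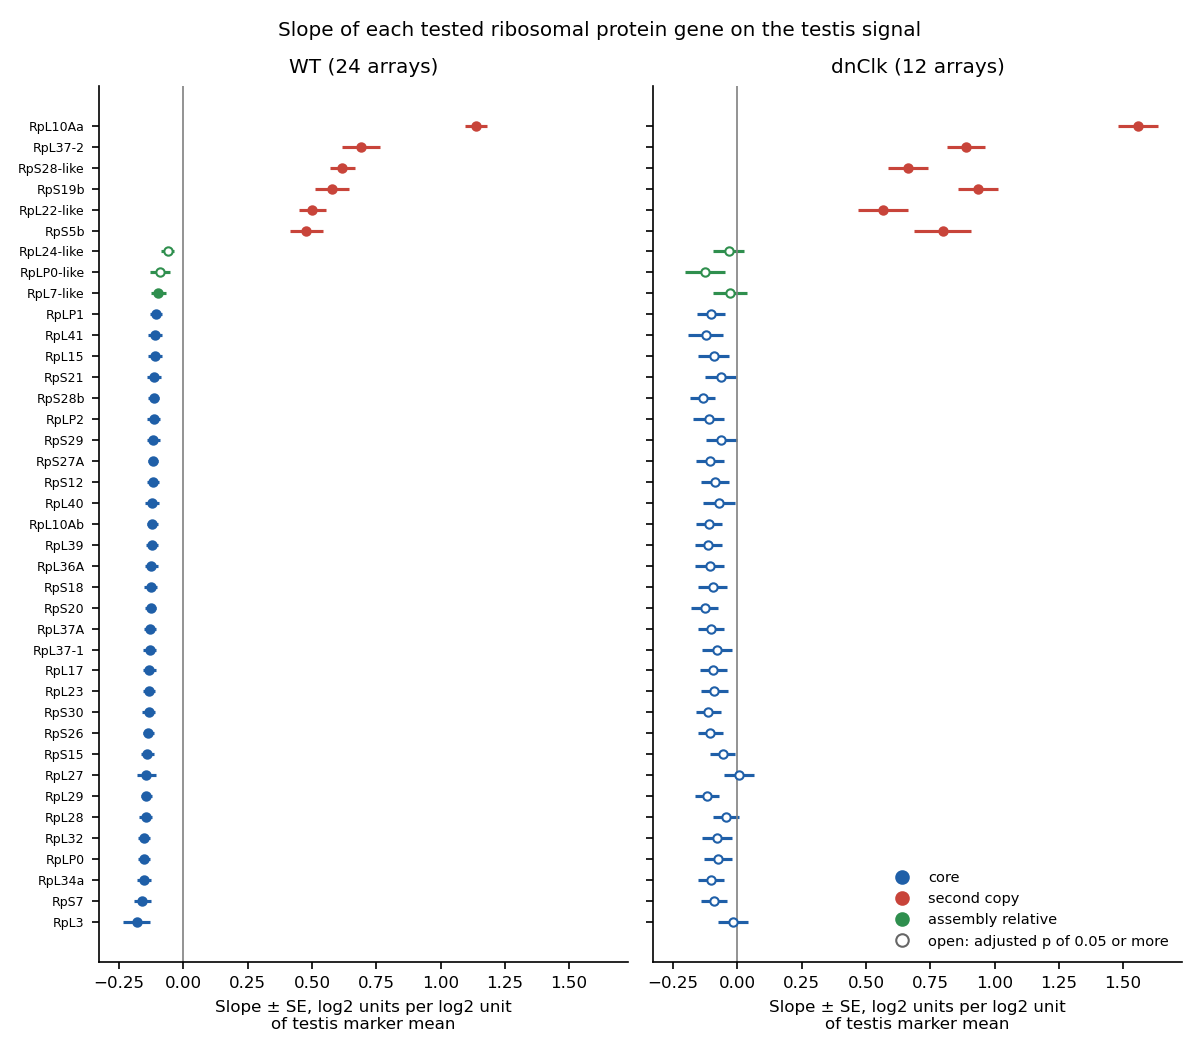
Slope of each of the 39 tested genes on the testis marker mean, in log2 units per log2 unit, with its standard error, in WT and in dnClk. Colours give the kind of gene and open points an adjusted p of 0.05 or more. The 6 second copies lie between 0.48 and 1.14 in WT and between 0.57 and 1.56 in dnClk, and the core genes lie between -0.18 and -0.11 in WT.

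The correlations between genes gave the same picture and are given as descriptions only, because the genes share arrays, scaling and brightness. Over the 24 WT arrays the 435 pairs of core genes had a median r of 0.87, from 0.50 to 0.97, and over the 12 dnClk arrays a median of 0.87, from 0.002 to 0.98. Each core gene's r with the mean of the other core genes in WT ran from 0.81 for RpL34a to 0.98 for RpL39. The 619 other genes at least as bright as the dimmest core gene had a median r of 0.74 with the core mean in WT, where 13 of them were below 0, and of 0.42 in dnClk, where 150 were. The core genes had medians of 0.94 and 0.93, with none below 0 in either course. The 6 tested copies had r between -0.93 and -0.87 with the core mean in WT and between 0.86 and 0.99 among themselves. In dnClk their r with the core mean lay between -0.79 and -0.52.

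After quantile normalization the core genes no longer moved as a block. The median r of their 435 pairs was 0.15 in WT, with 149 pairs below 0, and 0.13 in dnClk, with 152 below 0. The copies still moved together, at a median r of 0.87 over their 15 pairs in WT and 0.94 in dnClk. Their r with the core mean was closer to 0, between -0.46 and -0.30 in WT and between -0.37 and -0.25 in dnClk. RpL23 now had the highest r with the core mean in WT, at 0.86, and RpS18 the lowest, at -0.33.

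Measured against the mean of all other members instead of the core genes, the values depend on the copies, whose ranges are the widest. In WT the lowest r were then -0.62 for RpL10Aa, -0.54 for RpL37-2, -0.52 for RpL22-like, -0.52 for RpS19b and -0.51 for RpS28-like. In dnClk the same genes had r of -0.08, 0.34, 0.51, 0.31 and 0.33 in that order, so that 4 of the 5 were above 0 there. The highest in WT were 0.54 for RpS21, 0.51 for RpL27 and 0.51 for RpS15.

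**Figure D4:**
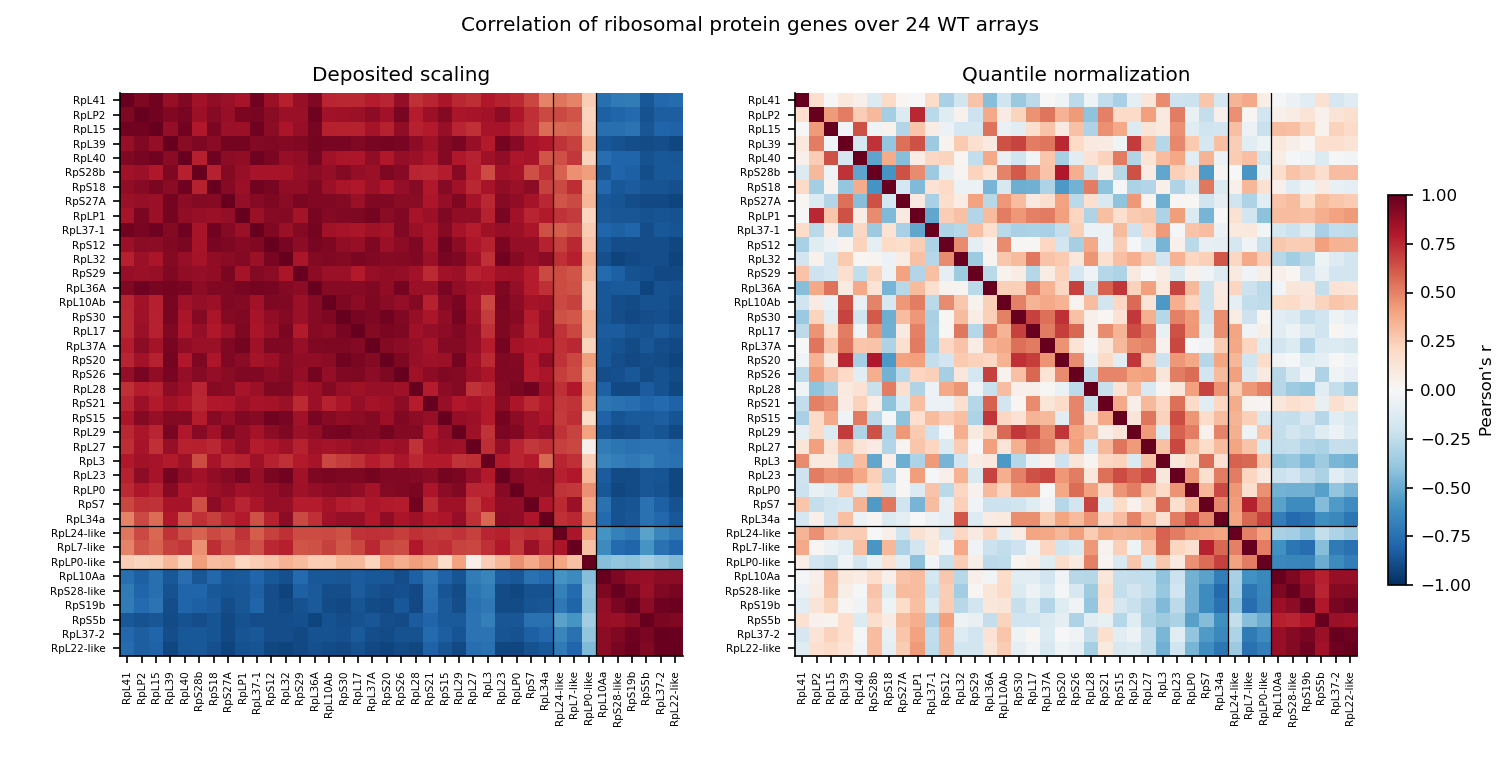
Pearson's r between every pair of the 39 tested genes over the 24 WT arrays, under the deposited scaling (left) and after quantile normalization (right), with lines that separate the 30 core genes, the 3 assembly relatives and the 6 second copies. The core block has a median r of 0.87 on the left and 0.15 on the right, and the block of the copies stays at 0.93 and 0.87.

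RpL3 was the core gene that strayed furthest from the others. In WT it ran from 10.74 log2 units at ZT24 through a median of 11.73 to 12.59 at ZT40. Its difference from the core median had an SD of 0.36 over the 24 arrays, against a median of 0.10 over the 30 core genes. It lay 1.25 log2 units below the core median at ZT28, 0.94 below at ZT24, 0.88 below at ZT30 and 0.82 below at ZT12, and within 0.25 of it on 10 of the 24 arrays, the last 6 (ZT36 to ZT46) among them. The testis markers averaged 9.23, 9.99, 9.31 and 6.14 on those 4 arrays in the order given. At ZT36, with the highest testis signal of 10.03, RpL3 lay 0.02 below the core median. The part of the testis signal in these differences was not tested. In dnClk the SD was 0.15, from 0.57 below at ZT16 to 0.12 below at ZT28. RpL3 has 3 probe sets on the array. The other 2 had means of 6.48 and 5.37 log2 units and did not follow it: the first was higher in dnClk by 0.53 ± 0.08, and the second rose with the testis signal, with a slope of 0.37 ± 0.04.

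RpL27, RpS7 and RpL34a strayed next, with SDs of 0.19, 0.18 and 0.16 log2 units around the core median in WT. RpS7 ran from 10.47 at ZT24 through 11.06 to 11.67 at ZT38, and RpL34a, the core gene with the lowest signal, from 9.11 at ZT36 through 9.95 to 10.31 at ZT44. Dim second probe sets of RpS29 and RpS30, not used elsewhere, did not follow the brighter ones: their level in dnClk differed from WT by 0.03 ± 0.10 and 0.03 ± 0.15 log2 units, against -1.20 ± 0.08 and -1.07 ± 0.08. The second bright probe set of RpS29 gave -1.20 ± 0.07.

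Between the 2 collection days of WT no member differed, against 2.35% of all tested probe sets, and 1 member had an unadjusted p under 0.05. The 2.35% stands for 265 probe sets, a number that fell to 29 without the array at ZT14, ZT20 or ZT44, rose to 1181 without that at ZT26, and moved by over 1.5 times for 17 of the 24 arrays. The member was RpS7, higher by 0.27 ± 0.13 log2 units on the second day (adjusted p = 0.221, limma), followed by RpL28 with 0.21 ± 0.11 and RpS18 with 0.21 ± 0.10. The 3 largest differences the other way were -0.49 ± 0.40 for RpS28-like, -0.38 ± 0.48 for RpL37-2 and -0.35 ± 0.73 for RpL10Aa. All 3 are second copies, and the standard errors are as large as the differences or nearly so.

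The last comparison set the level in dnClk against WT, with both courses in 1 fit that allowed each its own 24 h curve. Under the deposited scaling all 30 core genes were lower in dnClk, by 0.40 to 1.36 log2 units with a median difference of -1.11, while the median difference of all tested probe sets was 0.25. Of the other 9 tested genes 2 were higher, RpLP0-like and RpL22-like. In all, 30 of 39 genes were lower and 2 higher, against 17.7% lower and 39.3% higher of all tested probe sets. For 26 of the 30 core genes every dnClk array lay below every WT array, as for 4.4% of all tested probe sets. The 4 others were RpL3, RpL27, RpS7 and RpL34a.

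RpL40 had the largest difference. The 24 WT arrays had a mean ± SD of 12.64 ± 0.28 log2 units and the 12 dnClk arrays of 11.28 ± 0.15, which the fit gave as 2.57-fold higher in WT (log2 difference -1.36 ± 0.08 SE, adjusted p = 1.479e-15, limma). The highest dnClk array, 11.65 at ZT44, lay below the lowest WT array, 12.15 at ZT18. RpL41, RpL37-1, RpL15 and RpL36A followed with log2 differences of -1.35, -1.33, -1.32 and -1.31, and the smallest among the core genes were those of RpS7 at -0.53 ± 0.10 and RpL34a at -0.40 ± 0.09 (adjusted p = 4.81e-05 and 0.000468, limma). The stalk genes RpLP2, RpLP1 and RpLP0 lay between, at -1.28, -1.12 and -1.11.

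Other bright genes were mostly lower too. The 619 other genes at least as bright as the dimmest core gene had a median difference of -0.71, with quartiles of -1.14 and -0.26, and 467 were called lower and 44 higher, beside the core median of -1.11. Among the 131 other genes with a mean signal between 11 and 12 log2 units the median difference was -1.06 and 125 were called lower, against a median of -1.07 for the 15 core genes of the same signal. Between 12 and 13 the medians were -1.29 over 17 other genes and -1.20 over 13 core genes. Every dnClk array lay below every WT array for 207 of those 619 genes.

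**Figure D5:**
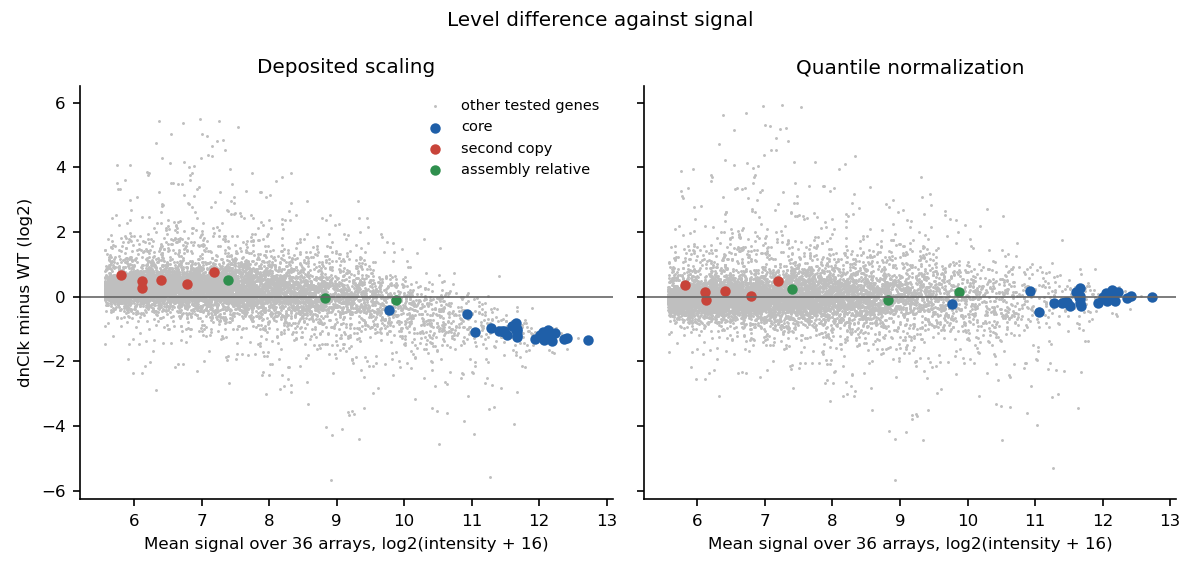
Difference between dnClk and WT in log2 units against the mean signal over the 36 arrays in log2(intensity + 16), 1 point per tested gene, under the deposited scaling (left) and after quantile normalization (right), with ribosomal protein genes coloured by kind. On the left the core genes lie between -1.36 and -0.40, and on the right between -0.46 and 0.26.

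After quantile normalization the core genes scattered about 0. Their median difference was -0.03, that of all tested probe sets -0.01, 12 were called lower and 5 higher, and RpL24-like was called higher with them, while 26.1% of all tested probe sets were called lower and 20.2% higher. The largest remaining difference was that of RpLP0, the base of the stalk, at -0.46 (adjusted p = 2.453e-10, limma). RpS21, at -0.30, RpL10Ab, at -0.28, and RpL34a, at -0.22, were also lower there (adjusted p = 7.129e-06, 4.377e-07 and 0.00788, limma), while RpS20 and RpS18, both small-subunit genes, were higher by 0.26 and 0.20 (adjusted p = 1.803e-06 and 5.742e-06, limma). RpL40, lowest under the deposited scaling, was lower by 0.15. When arrays were scaled to the hybridisation controls instead, all 39 genes were called higher in dnClk, as were 11112 of all 11261 tested probe sets. The median of the 39 was 1.0 there, beside 2.33 for all tested probe sets. The sign of the core genes' difference thus rests on the scaling. The control scaling shifts all probe sets of an array alike, so it cannot change how the members compare with all tested probe sets. Under the deposited scaling the median of the 39 was -1.07, beside 0.25 for all tested probe sets. After quantile normalization these medians were -0.0026 and -0.011.

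With the means of the testis and accessory gland markers in the fit, 29 core genes stayed lower, with a median of -0.99 over all 30. RpL34a lost its call, at -0.14 (adjusted p = 0.168, limma). Of all 11261 tested probe sets 4843 were called in that fit, 3126 of them higher, and their median difference over all was 0.035.

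No second copy was called lower in dnClk. RpL22-like was higher by 0.68 ± 0.27 log2 units, from a mean ± SD of 5.58 ± 0.91 over the 24 WT arrays to 6.26 ± 0.49 over the 12 dnClk arrays, with an adjusted p of 0.0350 by limma that rose to between 0.0507 and 0.0790 when any of 6 dnClk arrays was left out (ZT0, ZT8, ZT20, ZT32, ZT36 and ZT44). With those marker means in the fit its difference was 0.19 and did not pass (adjusted p = 0.407, limma), and that of RpL10Aa was 0.11. Without them RpL10Aa had the largest estimate of all members, 0.75 ± 0.58, which did not pass (adjusted p = 0.266, limma). The estimates of RpS19b, RpL37-2, RpS28-like and RpS5b were 0.52 ± 0.34, 0.49 ± 0.38, 0.40 ± 0.32 and 0.27 ± 0.29, with adjusted p between 0.186 and 0.414 by limma.

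Of the assembly relatives, RpLP0-like was higher in dnClk by 0.50 ± 0.10 log2 units, at 7.23 ± 0.35 in WT and 7.73 ± 0.28 in dnClk (adjusted p = 7.663e-05, limma). Its arrays overlapped, from 6.59 to 8.03 in WT and from 7.22 to 8.17 in dnClk, and after quantile normalization its difference was 0.25 and did not pass (adjusted p = 0.0968, limma). RpL24-like differed by -0.12 ± 0.07 and RpL7-like by -0.04 ± 0.08 (adjusted p = 0.124 and 0.692, limma), and without the WT array at ZT24 RpL24-like was called lower, at -0.14 (adjusted p = 0.0326, limma).

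Of 32 measured translation factors 24 were lower and 6 higher in dnClk under the deposited scaling, against 17.7% and 39.3% of all tested probe sets, with a median of -0.37 log2 units beside 0.25. None was rhythmic in WT or dnClk. The 4 with the smallest p were the RNA helicase eIF4A at -1.30, the elongation factor eEF5 at -1.06, Tctp at -1.25 and the poly(A)-binding protein pAbp at -0.98. After quantile normalization 17 of the 32 were lower and 6 higher, against 26.1% and 20.2% of all, with eIF4A at -0.17, Tctp at -0.23, pAbp at -0.01 and eEF5 at 0.08. Rack1, a scaffold on the small subunit, was lower by 0.93 ± 0.08 under the deposited scaling and differed by -0.05 after quantile normalization. The gene bip1, for which no role is given here, differed by 0.03 ± 0.07 (adjusted p = 0.685, limma).

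Of 30 measured genes of ribosome biogenesis 12 were higher and 2 lower in dnClk, against 39.3% and 17.7% of all tested probe sets, with a median of 0.14 log2 units beside 0.25, so the number higher is near the background. After quantile normalization 0 were higher and 11 lower, against 20.2% and 26.1%. The nucleolar GTPase Non1 was lower under both, by 0.84 ± 0.12 under the deposited scaling and by 0.85 after quantile normalization (adjusted p = 2.26e-07 and 1.135e-09, limma). The nucleolar protein Surf6 and the RNA polymerase I factor Tif-IA were higher by 0.50 ± 0.09 and 0.35 ± 0.07 under the deposited scaling. Rrp1, higher by 0.51 ± 0.09, is in the fly a DNA repair enzyme and entered the list through its symbol. None of the 3 passed after quantile normalization.

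Of 14 measured growth regulators 6 were lower and 1 higher in dnClk under the deposited scaling, against 17.7% and 39.3% of all tested probe sets, and 6 lower and 1 higher after quantile normalization, against 26.1% and 20.2%. The transcription factor foxo was lower by 0.82 ± 0.11 log2 units and by 0.94 after quantile normalization, and Max, the partner of Myc, by 0.46 ± 0.06 and 0.70. The stress factor crc was lower by 0.69 ± 0.09 under the deposited scaling and higher by 0.33 after quantile normalization. S6k, the kinase of the small-subunit protein S6, was lower by 0.35 ± 0.09 and not called after quantile normalization, at 0.06.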

How the data were processed

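RNA from pooled abdominal fat bodies was amplified by in vitro transcription with biotinylated nucleotides and measured on Affymetrix arrays, per the labels' protocols. The authors deposited 1 intensity per probe set and array on a linear scale. The submitters' processing notes name MAS5, without a version. In the deposited table every array has a trimmed mean of 150.0 (2% taken off each end), and this scaling was kept. All 36 columns matched a sample by name, and no 2 arrays held identical values.

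After 183 control probe sets were set aside, 18769 remained. The 60% with the highest mean of log2(intensity + 16) were tested, 11261 in all, down to a mean of 31.3 intensity units. Adding 16 understates the fold change of dim probe sets. Only probe sets with 1 gene symbol were named, with the probe set of highest mean standing for its gene. Of 47 probe sets of the 41 genes, 4 genes have several, and 3 probe sets shared between a member and another symbol were left out. No coordinates or sequences are given, since the sources used here name no build for the array.

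Fits used limma 3.58.1 in R 4.3.3 over all tested probe sets, with Benjamini-Hochberg adjustment over them and a threshold of 0.05. Rhythms were a cosine and a sine of 24 h. Slopes were fitted on the mean of the testis markers. Quantile normalization was run as an alternative on all 18769 probe sets other than controls, before the tested ones were taken. Correlations are Pearson's r, without a test. Other values and figures were made in Python 3.11.15. The fits were also run on simulated data. Each probe set had independent noise there, so array-wide shifts like those seen here were not covered.

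The members, their division into core genes, second copies and assembly relatives, the gene lists and the tests were chosen with earlier results of these data known. The rule for named genes took all members of a list of genes with second copies, the 4 brightest members, the 5 smallest p of the WT rhythm, the 3 smallest of the dnClk rhythm and of the difference in rhythm, the 5 most raised and the 5 most lowered members in dnClk, the 3 largest day differences and the 3 steepest testis slopes each way, the 5 lowest and the 3 highest correlations, and 4 genes of each other list by the p of the level difference. Further members, RpL3 among them as a stray core gene, were named after their values were seen. The alternatives were other pseudocounts, filters and normalizations, tissue signals as covariates, single days, shared times and leaving out each array.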

Additional observations from a re-analysis of the deposited data

How the results depend on the processing

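Leaving out each array in turn left 0 calls of rhythm in WT, in dnClk and between them, and 0 of the day. It gave 30 to 31 genes called lower and 1 to 2 called higher in dnClk, with a median difference of -1.10 to -1.05 (core genes -1.14 to -1.09). The testis slope in WT kept 6 positive and 31 to 33 negative calls, and that in dnClk 6 positive and 0 to 1 negative. The median r with the mean of all other members ran from 0.24 to 0.50 in WT and from -0.10 to 0.29 in dnClk, the lowest without ZT44. Of the other alternatives, the second day alone gave 1 dnClk rhythm (RpL10Aa, from 6 arrays, where 856 probe sets passed). The tissue covariates gave 1 day difference (RpL10Aa), where 3193 of all 11261 tested probe sets passed. The number called higher in dnClk, 2 under the deposited scaling, was 1 with pseudocount 64, with the brightest 40% of probe sets, with the tissue covariates and with time as a block at the 12 shared times, 6 after quantile normalization, 0 after centring arrays on their median and 39 after scaling to the hybridisation controls. The number called lower was 12 after quantile normalization and 0 after scaling to those controls. Of all 11261 tested probe sets, 4428 were called higher under the deposited scaling and 2280 after quantile normalization. Median centring gave 1291 and the controls 11112 of 11164 called. Pseudocount 64 gave 4354, the tissue covariates 3126 and time as a block 3642. Among the brightest 40% of probe sets 2779 of 7508 were called higher. Quantile normalization gave 2940 called lower. The median difference of the tested members was -0.0026 after quantile normalization, -1.46 after median centring and 1.0 with the controls, and that of the core genes -0.034, -1.50 and 0.96. Among the brightest 40% only 2 copies were tested, and 2 positive testis slopes remained. Quantile normalization left 3 negative slopes. The median r of members in WT was 0.93 against the core genes alone, 0.83 with pseudocount 64 and 0.94 after median centring, but -0.12 with pseudocount 1 and -0.032 after quantile normalization. In dnClk it was 0.92, 0.50 and 0.55 under the first 3. The cause of these changes was not tested.

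The control scaling reversed single level differences to 0.71 for RpL40, 0.72 for RpL41, 0.74 for RpL37-1, 0.75 for RpL15, 0.76 for RpL36A, 0.82 for RpL10Ab, 0.89 for RpL37A, 0.91 for RpS28b, 0.96 for RpLP0, 1.67 for RpL34a, 1.96 for RpL24-like and 2.03 for RpL7-like, and to 0.77 for eIF4A, 1.01 for eEF5, 0.82 for Tctp, 1.10 for pAbp, 1.24 for Non1, 1.14 for Rack1, 1.25 for foxo, 1.38 for crc, 1.61 for Max and 1.73 for S6k. The control scaling shifts all probe sets of an array by the same amount, so these reversals follow from the difference in the controls between the courses. All tested probe sets had a median of 2.33 there, and 11112 of 11261 were called higher. Quantile normalization reversed RpL24-like to 0.15, RpS5b to -0.12, RpS28b to 0.053, eEF5 to 0.084, bip1 to -0.30, crc to 0.33 and S6k to 0.061. It also reversed the slopes of RpL10Ab to 0.0055 and RpS28b to 0.013. Median centring reversed RpS5b to -0.12, Tif-IA to -0.044 and bip1 to -0.36. The tissue covariates reversed RpL7-like to 0.18, RpL24-like to 0.052 and RpS28-like to -0.18, and the day differences of RpL37-2 to 0.060 and RpL10Aa to 0.39. The labels give no replicate numbers, so arrays could be paired by time alone. With time as a block at the 12 shared times 30 members were called lower and 1 higher, with a median of -1.04. Of all 11261 tested probe sets 5296 were called in that fit, 3642 of them higher, and the median over all was 0.22.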
